A study of Rattus norvegicus with 9 samples.

Results

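The genes described here build and serve the primary cilium of rat chondrocytes. They are the 39 of 17588 genes in the table whose symbols name intraflagellar transport (Ift), Bardet-Biedl (Bbs), tectonic (Tctn) or nephrocystin (Nphp) proteins, or are Arl3, Arl6, Arl13b, Kif3a, Kif3b, Kif3c, Wdr19, Wdr35, Ttc21b, Tulp3 or Rpgrip1l. The choice went by symbol and used no expression value, but it was made with earlier results of these data known. By role they comprised 7 transition zone genes, 11 genes of the intraflagellar transport complex B, 6 of complex A, 3 kinesin-2 motor genes, 6 genes of the BBSome coat, 2 of its chaperonin, 3 ARL GTPases and the adaptor Tulp3.

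A primary cilium is a non-motile rod of microtubules that grows from the mother centriole of most resting cells, chondrocytes among them. Its proteins are carried along the microtubules by trains of complexes B and A, outward by kinesin-2 and back by dynein-2. The BBSome takes membrane proteins out of the cilium, and the transition zone at its base controls what enters. In cartilage the organelle is known for Hedgehog signalling and for sensing load, and it is taken down before a cell divides.

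Poly(A) RNA was sequenced from wild-type primary rat chondrocytes in 3 groups of 3 libraries. The co-culture group received IL-1β and shared a transwell with dermal fibroblasts, which sat in the upper chamber above the chondrocytes. The IL-1β group received IL-1β alone, and the control group was cultured routinely with neither. IL-1β is an inflammatory cytokine used to model joint inflammation in culture. Dose, timing, animal numbers and passage were not stated in the labels. Nor do the labels say that replicates came from separate animals or cultures, so each p-value reflects the variation among the libraries at hand, which may be technical.

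The values are FPKM, fragment counts divided by transcript length and by the mapped total of the library, so levels can be compared between genes. Depth in reads is unknown. Library sums of FPKM were 809839 to 811665 with co-culture, 796262 to 832248 with IL-1β and 771058 to 782435 in controls. Fold changes were tested on log2(FPKM + 1) with limma, over 11732 genes with at least 1 FPKM in at least 3 libraries. A gene is called where the Benjamini-Hochberg adjusted p over all of these is under 0.05. Folds given beside FPKM values are ratios of group means, whereas log2 changes on this scale understate the change of low genes. All 39 genes passed the filter and none was at 0 in any library.

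Of 9 chondrocyte markers tested, all 9 were called lower with IL-1β than in controls and 7 were called higher with co-culture than with IL-1β alone. Their summed level was 618.6 to 675.4 FPKM with co-culture, 439.4 to 459.3 FPKM with IL-1β and 1904 to 1988 FPKM in controls, so the labelled cell type was detected in each group. The 8 skeletal muscle markers summed to 360.2 to 401.1 FPKM with co-culture, 368.1 to 395.0 FPKM with IL-1β and 165.3 to 170.6 FPKM in controls, and all 8 were called higher with IL-1β, 1 of them, Ckm, being under 1 FPKM in all controls and tested through the other libraries. The 10 dermal fibroblast markers summed to 1034 to 1143 FPKM with co-culture, 1652 to 1714 FPKM with IL-1β and 619.7 to 626.6 FPKM in controls. The sum was led by Dcn, Lum, Thy1 and Prrx1, of which Dcn and Lum are also made by chondrocytes. Of the 6 that passed the filter 5 were called higher with IL-1β, and 4 lower with co-culture than with IL-1β. Dpp4, Pi16, Cd34 and Clec3b were below the filter and no higher than 1.31 FPKM. The 7 macrophage markers summed to 19.56 to 19.72 FPKM with co-culture, 20.94 to 23.17 FPKM with IL-1β and 16.91 to 18.23 FPKM in controls. Cd14 led this sum. With IL-1β Cd14 and Cd68 were called higher, Laptm5 was called lower and Adgre1 was not called. Ptprc, Csf1r and Aif1 were below the filter and no higher than 1.19 FPKM. None of 6 endothelial markers passed the filter, and the highest value among them was 0.59 FPKM. Of the motile cilium genes, which mark multiciliated cells, 15 were in the table and none passed the filter. Their highest value was 1.14 FPKM. Over all genes tested 26.5% were called higher and 20.2% lower with IL-1β than in controls. With co-culture 11.9% were called higher and 10.1% lower than with IL-1β. The markers move with the comparisons below, and their part in the cilium results was not tested. In bulk RNA, fewer cells of a type and less RNA per cell cannot be told apart.

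RFX transcription factors are known to bind an element called the X-box at many cilium genes, so the promoters were read for it. RefSeq promoters on the rat build GRCr8, 250 bases before to 50 after the start, were found for 31 of the 39 genes. The 6 letters GTTGCC or their reverse complement GGCAAC, which are the core of the element, stood in 17 of these 31 (54.8%). They stood in 1155 of 9296 promoters (12.4%) of the other genes tested. Among members called in the comparison of IL-1β with control below, 10 of 13 held the letters (76.9%), against 7 of 18 (38.9%) among those not called. The 13 are the called members with a promoter and include Tulp3, which fell, and the calls depend on scaling. The same split was not made over the other genes tested. A link between the letters and IL-1β was not tested. Median GC content was 59.7% in the members' promoters and 61.3% in those of the other genes tested. A longer X-box pattern of 14 letters covers both arms of the element at a fixed spacing. It is looser in its spacer letters and can overlap the short one. It was found in 1 of 31 (Arl6) and in 0.775% of the others. Arms at another spacing were not searched for. The pair in the Tctn1 window below, 1 base apart, was therefore not counted, and these shares do not cover every promoter with both arms. The search ran on both strands. A match is a description of the letters and not a binding site, and no match says only that these letters are absent from the window.

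The windows below show the letters in the 10 members that were called with IL-1β and hold them, and in Arl6, which holds the long pattern. Each is 30 bases of GRCr8 on the strand of its gene, 5′ to 3′, and the capitals mark GTTGCC or GGCAAC.
Tctn1, chr12:39970599-39970628, plus strand: tcggctgtgactGTTGCCcGGCAACagaca
Tctn2, chr12:37668060-37668089, minus strand: catcgattggtgGTTGCCatggctgcgggc
Bbs1, chr1:211633435-211633464, minus strand: ctggctgagctgGTTGCCaagacgacgcct
Bbs2, chr19:10915578-10915607, plus strand: tatccgctgctaGGCAACcggcctgccaag
Bbs5, chr3:74818589-74818618, plus strand: caaagccgatgcGTTGCCttggtgtccata
Ift27, chr7:111634901-111634930, minus strand: gggttgatgataGTTGCCaggagcctgttt
Ift81, chr12:39618599-39618628, plus strand: acatcactgcatGGCAACcGTTGCCaagga
Wdr35, chr6:37490549-37490578, plus strand: tgggcggcgctgGTTGCCaggcgacgggag
Kif3c, chr6:32086700-32086729, plus strand: gcagcttgctcgGTTGCCtggggattctgc
Tulp3, chr4:163318280-163318309, minus strand: gtgcggggtgtgGTTGCCaggggcggggcc
Arl6, chr11:54181333-54181362, plus strand: gaagaagctcccGTTGCCaagggaacgccg

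Tctn1 and Ift81 carry the letters on both strands, 1 base apart, which makes an inverted repeat. In Kif3c the first capital lies at position -167 from the start, farther away than in the other windows shown, and in Tulp3 at position -43. Ift27 holds the letters a second time, at position -205, in a window not shown. Kif3c, the member called between co-culture and IL-1β, and Tulp3, the member that fell with IL-1β, hold the same 6 letters as others that rose with IL-1β.

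The 39 genes spanned a wide range of levels. Arl3, a GTPase that releases lipidated cargo inside the cilium, averaged 110.2 FPKM over the 9 libraries and was the highest, followed by the complex A subunit Ift43 at 41.36 FPKM and the complex B subunit Ift20 at 37.19 FPKM. The lowest were Tctn3 at 1.954 FPKM, Bbs12 at 1.966 FPKM and Nphp4 at 1.993 FPKM. Subunits of 1 complex did not share a level, since complex B ran from Ift88 at 4.387 FPKM to Ift20, and complex A from Wdr19 at 2.408 FPKM to Ift43.

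Summed over the 39 genes, the level was 547.1, 538.1 and 544.3 FPKM with co-culture, 577.1, 546.8 and 566.5 FPKM with IL-1β and 515.1, 521.4 and 514.2 FPKM in controls. All IL-1β and all co-culture libraries lay above all controls, while co-culture and IL-1β overlapped. Without Arl3 the sums were 438.0, 429.7 and 433.9 FPKM with co-culture, 453.0, 437.1 and 454.2 FPKM with IL-1β and 411.2, 414.5 and 407.4 FPKM in controls. The library sums of all genes were also higher with IL-1β and with co-culture than in controls. The median coefficient of variation of the 39 genes between replicates was 5.83% with co-culture, 4.96% with IL-1β and 5.16% in controls.

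**Figure D1:**
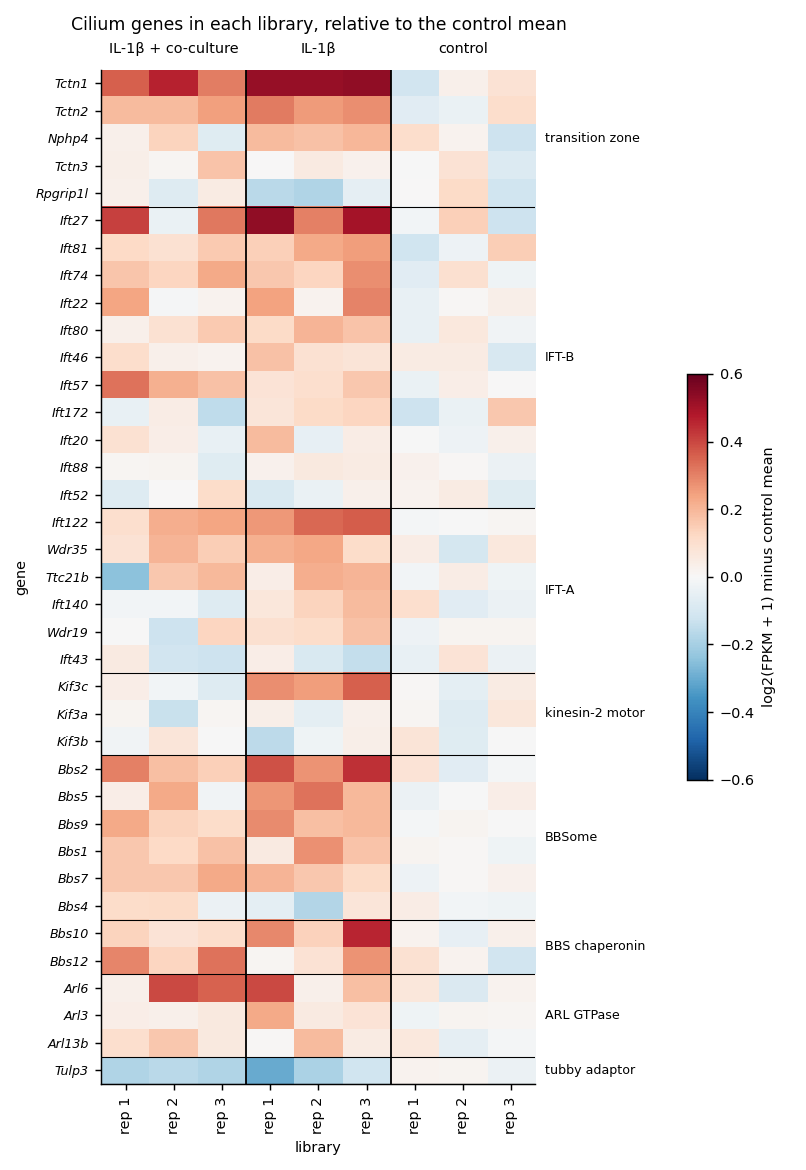
Log2(FPKM + 1) of 37 of the 39 cilium genes (rows, grouped by role) in the 9 libraries (columns; co-culture, IL-1β, control), minus the gene's mean over the 3 controls; red is above and blue below it. Tctn1 and Ift27 show the widest contrast between IL-1β and control, and Tulp3 runs the other way.

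The first comparison asks what IL-1β did to these genes. With IL-1β 18 of the 39 were called higher than in controls (46.2%) and 1, Tulp3, lower (2.56%). Over all genes tested 26.5% were called higher and 20.2% lower, so calls in either direction reached 48.7% of the 39 and 46.7% of all genes. The direction of the 39 lay on 1 side: 33 had a log2 change above 0, against 54.7% of all genes tested, and their median log2 change was 0.16, against 0.0233 for all genes. Changes were modest, from -0.20 to 0.53 on the log2(FPKM + 1) scale. In 21 genes all 3 IL-1β libraries lay above all 3 controls, which held for 31.3% of all genes tested, and in 1 they lay below, against 25% of all genes.

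Scaling between libraries changes how many of these pass. With each library rescaled to a common FPKM sum 10 were called higher, with quantile normalization 9 and with median-of-ratios scaling 14. The split over all genes moved too: 56.7% of calls were higher as deposited, 41.4% after common-sum scaling, 40.7% after quantile normalization and 49.9% after median-of-ratios scaling. Of the 39 genes 29 had a change above 0 after common-sum scaling, 30 after quantile normalization and 32 after median-of-ratios scaling. The distance between the median of the 39 and that of all genes was 0.137 log2 units as deposited and 0.135 after common-sum scaling.

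**Figure D2:**
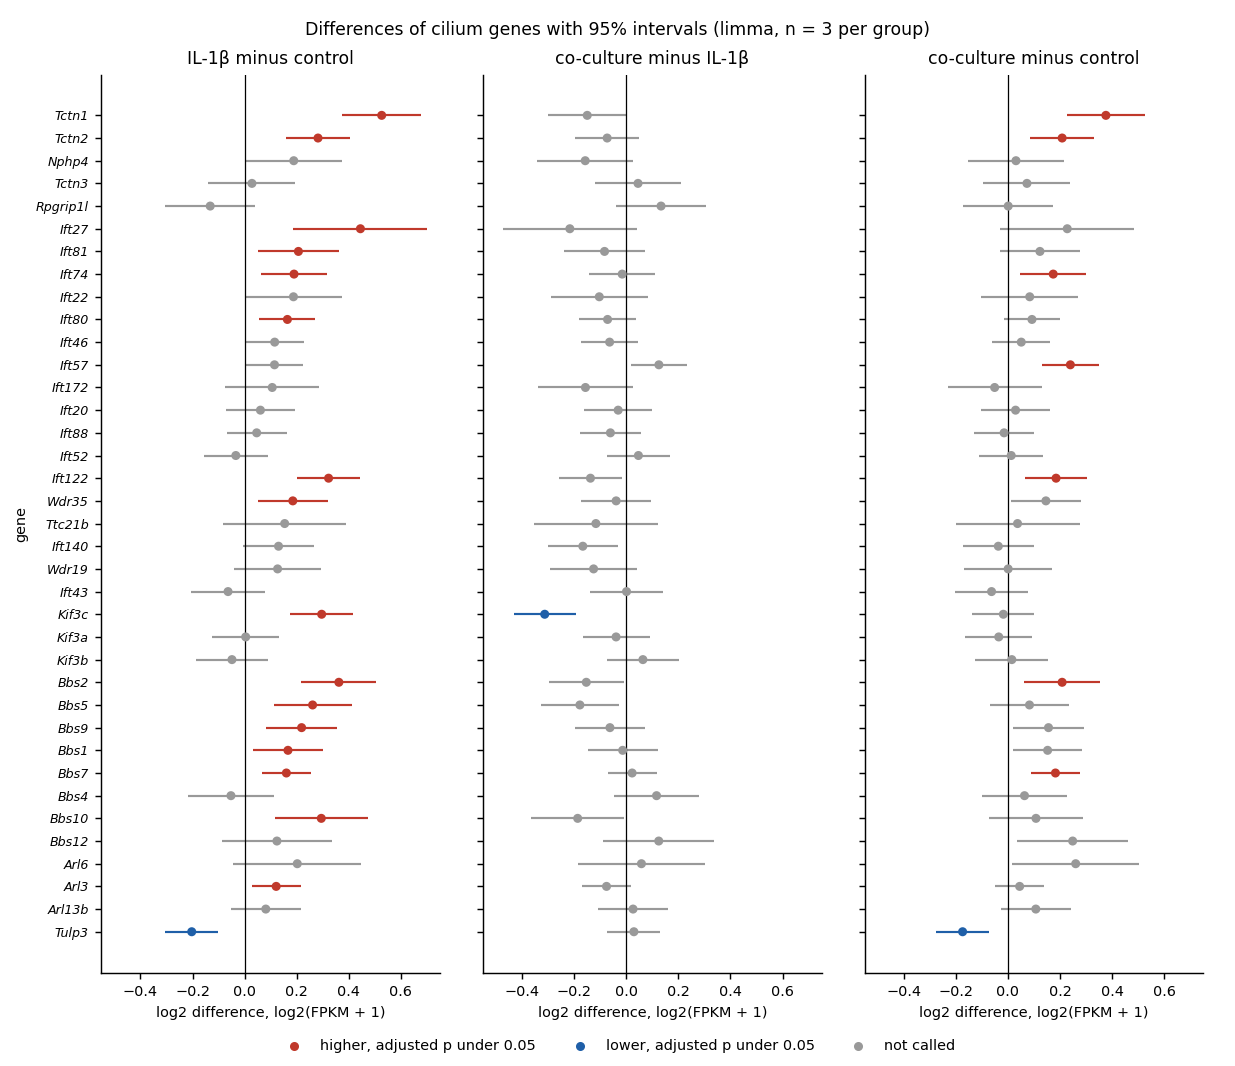
Log2 difference with its 95% interval (limma, log2(FPKM + 1)) of 37 of the 39 genes in 3 panels: IL-1β against control, co-culture against IL-1β, and co-culture against control; called genes are coloured. In the IL-1β panel 16 of the points shown are called above 0 and 1 (Tulp3) below, while in the panel of co-culture against IL-1β only Kif3c is called.

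Among the 7 transition zone genes 4 were called higher with IL-1β, against 26.5% of all genes. The tectonics Tctn1 and Tctn2 were among the 4. Tctn1, a tectonic needed for ciliary protein entry and Hedgehog signalling in the mouse, had 5.33, 5.32 and 5.37 FPKM with IL-1β, against 3.06, 3.50 and 3.67 FPKM in controls. The groups lay well apart, and the 1.57-fold difference was the widest of the 39 (log2 change 0.53, SE 0.0676, adjusted p = 0.00013). Its partner Tctn2 had 8.27, 7.91 and 8.04 FPKM with IL-1β, against 6.12, 6.27 and 7.03 FPKM in controls. This was 1.25-fold higher with no overlap (log2 change 0.28, SE 0.0551, adjusted p = 0.00206).

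Tctn3, Nphp4 and the scaffold gene Rpgrip1l were not called. Rpgrip1l had 2.84, 2.79 and 3.14 FPKM with IL-1β, against 3.31, 3.66 and 2.95 FPKM in controls, and was called lower after quantile normalization alone (log2 change -0.23, adjusted p = 0.0379).

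In complex B, which carries tubulin and other cargo toward the tip, 4 of 11 genes were called higher with IL-1β, against 26.5% of all genes. The median log2 change was 0.115, against 0.0233 for all genes. Whether any 1 complex differs from all genes was not tested. Ift27, a small GTPase-like subunit that links the train to BBSome exit, had 31.54, 26.73 and 30.83 FPKM with IL-1β, against 21.22, 23.87 and 19.62 FPKM in controls. It rose 1.38-fold without overlap (log2 change 0.44, SE 0.115, adjusted p = 0.0101), with the largest SE of the 39. The tubulin-binding pair Ift81 and Ift74 and the subunit Ift80 were called with smaller changes, and each call ended on leaving out some libraries and under some scalings. Ift74 had 16.94, 16.57 and 18.47 FPKM with IL-1β, against 14.29, 16.18 and 14.75 FPKM in controls (log2 change 0.19, SE 0.0567, adjusted p = 0.0202). Its groups did not overlap, and the call ended without control replicate 1 or 3 or IL-1β replicate 3 (log2 change 0.15 to 0.24 over all left-out libraries, adjusted p up to 0.0771). Common-sum and quantile scaling also ended it (log2 change down to 0.13, adjusted p up to 0.0942).

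Ift81 had 7.17, 7.66 and 7.79 FPKM with IL-1β, against 5.81, 6.25 and 7.20 FPKM in controls, so the groups overlapped (log2 change 0.21, SE 0.0691, adjusted p = 0.0331). Its call ended without control replicate 1 or 2 or IL-1β replicate 2 or 3 (log2 change 0.15 to 0.28, adjusted p up to 0.119). It also ended with no filter, in the fit of 6 libraries and under all 3 other scalings (log2 change down to 0.14, adjusted p up to 0.13). Ift80, whose mutations in people affect the skeleton, had 14.38, 15.37 and 15.02 FPKM with IL-1β, against 12.78, 13.84 and 13.02 FPKM in controls. There was no overlap (log2 change 0.16, SE 0.0482, adjusted p = 0.0186), but the call ended without control replicate 1 or 3 or IL-1β replicate 2 or 3 (log2 change 0.14 to 0.20, adjusted p up to 0.0676). Common-sum and quantile scaling ended it as well (log2 change down to 0.10, adjusted p up to 0.146). The other 7, Ift20, Ift22, Ift46, Ift52, Ift57, Ift88 and Ift172, were not called. Without co-culture replicate 1 Ift57 passed (adjusted p = 0.0422). Among them Ift88, the subunit whose loss is widely used to remove cilia in mice, had 4.45, 4.57 and 4.54 FPKM with IL-1β, against 4.45, 4.37 and 4.22 FPKM in controls.

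In complex A, which serves the return journey and membrane protein entry, 2 of 6 genes were called higher, against 26.5% of all genes. Ift122 had 6.87, 7.33 and 7.43 FPKM with IL-1β, against 5.52, 5.56 and 5.61 FPKM in controls. The controls were tight and lay well below, a 1.30-fold difference (log2 change 0.32, SE 0.0538, adjusted p = 0.000771). Wdr35, another core subunit, had 9.77, 9.89 and 9.0 FPKM with IL-1β, against 8.57, 7.62 and 8.68 FPKM in controls (log2 change 0.18, SE 0.0604, adjusted p = 0.03). Its groups did not overlap, and the call ended without control replicate 2 or IL-1β replicate 1 or 2 (log2 change 0.13 to 0.22, adjusted p up to 0.106). It also ended under all 3 other scalings and with the replicate block (adjusted p up to 0.141). Ift43, Ift140, Wdr19 and Ttc21b were not called.

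Of the 3 kinesin-2 genes Kif3c alone was called higher, against 26.5% of all genes. Kif3c, a motor subunit that pairs with Kif3a and is best known in neurons, had 9.38, 9.19 and 9.99 FPKM with IL-1β, against 7.62, 7.22 and 7.87 FPKM in controls. This was 1.26-fold higher with no overlap (log2 change 0.30, SE 0.0533, adjusted p = 0.00125). The subunits of the classical ciliary motor were not called. Kif3a had 12.16, 11.33 and 12.10 FPKM with IL-1β, against 11.94, 11.14 and 12.42 FPKM in controls, and Kif3b had 7.77, 8.61 and 9.0 FPKM with IL-1β, against 9.32, 8.28 and 8.74 FPKM in controls. In both the groups overlapped.

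On the values as deposited, the BBSome was the complex with most of the chosen members called, 5 of 6 higher, against 26.5% of all genes. The median log2 change of the 6 was 0.193. The BBSome subunits Ttc8 and Bbip1 fell outside the choice by symbol and are counted among the other genes below. Neither was called with IL-1β (log2 change 0.083 and 0.11, adjusted p = 0.339 and 0.177 by limma). The share of 5 in 6 therefore does not cover the whole complex. Of the 5 calls only those of Bbs2 and Bbs5 held in each alternative. Bbs2 had 9.74, 8.94 and 10.17 FPKM with IL-1β, against 7.73, 6.87 and 7.18 FPKM in controls, 1.32-fold higher with no overlap (log2 change 0.36, SE 0.0646, adjusted p = 0.00118). Bbs5, the lipid-binding subunit, had 9.72, 10.16 and 9.20 FPKM with IL-1β, against 7.70, 7.90 and 8.16 FPKM in controls (log2 change 0.26, SE 0.067, adjusted p = 0.00963). Both pairs of groups were separate. Bbs7, which pairs with Bbs2, had 12.33, 11.91 and 11.52 FPKM with IL-1β, against 10.32, 10.61 and 10.75 FPKM in controls (log2 change 0.16, SE 0.0421, adjusted p = 0.0108). Its groups were separate too, and its call ended under common-sum and quantile scaling (adjusted p up to 0.0911).

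Bbs9 had 3.59, 3.28 and 3.32 FPKM with IL-1β, against 2.74, 2.82 and 2.77 FPKM in controls, with no overlap (log2 change 0.22, SE 0.0604, adjusted p = 0.0139). Its call ended without IL-1β replicate 1, the highest library (adjusted p up to 0.052 over all left-out libraries), and after quantile normalization (log2 change 0.13, adjusted p = 0.114). Bbs1, which contacts cargo, had 6.29, 7.50 and 6.91 FPKM with IL-1β, against 6.10, 6.07 and 5.91 FPKM in controls (log2 change 0.17, SE 0.0597, adjusted p = 0.0439). The groups were separate, but the call held on leaving out IL-1β replicate 1 and ended without any other library, those of the co-culture included (log2 change 0.11 to 0.22, adjusted p up to 0.156). It also ended with no filter, under all 3 other scalings, with the replicate block and in the fit of 6 libraries (log2 change down to 0.09, adjusted p up to 0.222). Bbs4 was not called and had 4.91, 4.44 and 5.47 FPKM with IL-1β, against 5.33, 5.08 and 5.03 FPKM in controls.

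Bbs10, which helps fold BBSome subunits, had 4.10, 3.60 and 4.75 FPKM with IL-1β, against 3.24, 3.04 and 3.27 FPKM in controls. It was 1.30-fold higher without overlap, although the IL-1β libraries were spread (log2 change 0.29, SE 0.0799, adjusted p = 0.0128). Bbs12, of the same chaperonin, was not called. Arl3 had 124.12, 109.79 and 112.30 FPKM with IL-1β, against 103.93, 106.94 and 106.83 FPKM in controls, a 1.09-fold difference (log2 change 0.12, SE 0.042, adjusted p = 0.0386). IL-1β replicate 1 stood above the rest, and the call ended without it, without any 1 control or without co-culture replicate 2 or 3 (log2 change 0.07 to 0.16, adjusted p up to 0.112). It also ended under 7 of the 10 other alternatives, all 3 scalings among them (log2 change down to 0.05, adjusted p up to 0.272). Arl6, which recruits the BBSome to membranes, and Arl13b, the GTPase used to stain cilia, were not called. Arl6 was the more variable, at 24.04, 18.40 and 20.51 FPKM with IL-1β, against 18.89, 16.89 and 18.29 FPKM in controls.

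Tulp3, which brings G protein-coupled receptors into the cilium with complex A and restrains Hedgehog signalling in the mouse, was the exception. It had 27.24, 29.53 and 31.08 FPKM with IL-1β, against 34.29, 34.25 and 32.93 FPKM in controls. All IL-1β libraries lay below all controls (0.866 of the control mean, log2 change -0.20, SE 0.0453, adjusted p = 0.00445). The call of Tulp3 held in each alternative run.

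**Figure D3:**
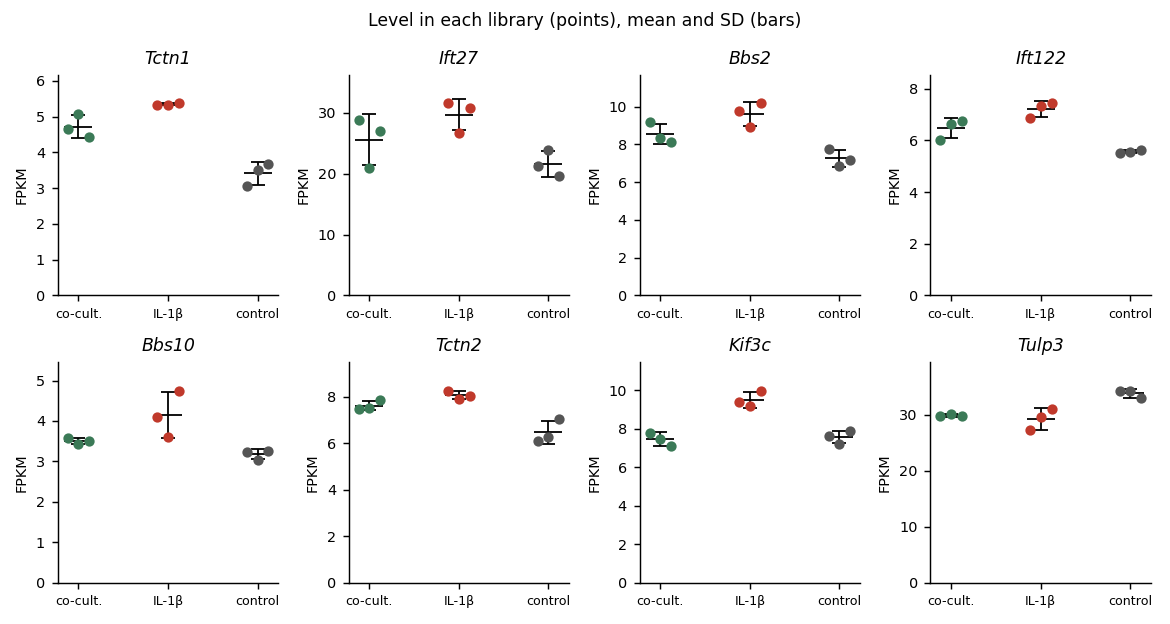
FPKM of 8 genes in each library (points) with group mean and SD (n = 3), in the order co-culture, IL-1β, control. Tctn1, Ift27, Bbs2, Ift122, Bbs10 and Tctn2 are higher with IL-1β than in controls, Kif3c is highest with IL-1β alone, and Tulp3 is highest in controls.

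The second comparison asks what dermal fibroblasts in the upper chamber changed in chondrocytes under IL-1β. With co-culture 1 of the 39 genes was called against IL-1β alone (2.56%), Kif3c, which was lower, and none was called higher. Over all genes tested 22% were called, 11.9% higher and 10.1% lower. At an unadjusted p under 0.05 limma put 1 of the 39 higher, Ift57, and 6 lower, Ift140, Ift122, Bbs2, Bbs5, Bbs10 and Kif3c. Kif3c had 7.81, 7.48 and 7.11 FPKM with co-culture, against 9.38, 9.19 and 9.99 FPKM with IL-1β. The groups were separate, and the co-culture libraries lay in the range of 7.22 to 7.87 FPKM seen in controls or just under it. The level was 0.784 of the IL-1β mean (log2 change -0.31, SE 0.0533, 95% interval -0.433 to -0.194, adjusted p = 0.00253), and the call held in each alternative run.

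The other 38 log2 changes between co-culture and IL-1β did not pass the test. All 39 intervals, each taken for 1 gene, lay between -0.475 and 0.337 on the log2(FPKM + 1) scale. On that scale they bound each difference to less than 0.5 units either way, and do not show that differences are absent. For low genes the change in FPKM itself can be larger. The median log2 change was -0.0641, against 0.0157 over all genes, and 12 of 39 lay above 0, against 54.9% of all genes. These libraries are the same IL-1β libraries as in the first comparison. In 10 genes all co-culture libraries lay below all IL-1β libraries, against 16.5% of all genes, and in 1, Ift57, they lay above, against 21.2% of all genes.

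Several genes nearest the threshold had also been called higher with IL-1β. Bbs5 had 8.17, 9.44 and 7.80 FPKM with co-culture, against 9.72, 10.16 and 9.20 FPKM with IL-1β, with overlap (log2 change -0.18, adjusted p = 0.0866). Bbs10 had 3.59, 3.43 and 3.50 FPKM with co-culture, against 4.10, 3.60 and 4.75 FPKM with IL-1β, without overlap (log2 change -0.19, adjusted p = 0.128). Without IL-1β replicate 2 Bbs10 passed the test (adjusted p = 0.0396), and without co-culture replicate 2 Bbs5 did (adjusted p = 0.0189). Tctn1 had 4.65, 5.07 and 4.44 FPKM with co-culture, under all its IL-1β values (log2 change -0.15, adjusted p = 0.148). Ift27 had 28.86, 20.88 and 27.01 FPKM with co-culture, where replicate 2 fell in the control range (log2 change -0.22, adjusted p = 0.216).

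Ift140, a complex A subunit, had 5.36, 5.36 and 5.11 FPKM with co-culture, against 5.75, 6.06 and 6.34 FPKM with IL-1β (log2 change -0.17, adjusted p = 0.0765). Ift57, a peripheral complex B subunit, went the other way with 17.97, 16.53 and 16.09 FPKM with co-culture, against 15.00, 15.18 and 15.92 FPKM with IL-1β (log2 change 0.13, adjusted p = 0.0942). Neither pair of groups overlapped and neither gene passed the test.

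The third comparison sets the co-cultured cells against controls and shares its libraries with the other two. With co-culture 7 of the 39 were called higher (17.9%) and 1 lower (2.56%), against 21.8% and 12.2% of all genes. Together this was 8 genes (20.5%), against 33.9% of all genes. The median log2 change was 0.0828, against 0.0426 over all genes, and 32 lay above 0, against 61.2% of all genes. In 14 genes all co-culture libraries lay above all controls, against 29.6% of all genes, and in 1 below, against 17%. After common-sum scaling 2 were called higher, and after median-of-ratios or quantile scaling 4. The number with a change above 0 was 23 after common-sum, 24 after quantile and 26 after median-of-ratios scaling. Over all genes 64.2% of calls were higher as deposited, against 43.4%, 49.8% and 44.1% under common-sum, median-of-ratios and quantile scaling.

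Tctn1 stayed highest by change, at 4.65, 5.07 and 4.44 FPKM with co-culture, against 3.06, 3.50 and 3.67 FPKM in controls (log2 change 0.38, adjusted p = 0.002). Ift57 had 17.97, 16.53 and 16.09 FPKM with co-culture, against 13.69, 14.53 and 14.13 FPKM in controls, 1.19-fold higher (log2 change 0.24, adjusted p = 0.00385). Tulp3 had 29.72, 30.10 and 29.76 FPKM with co-culture, against 34.29, 34.25 and 32.93 FPKM in controls (log2 change -0.17, adjusted p = 0.0146). None of these 3 pairs of groups overlapped, and the 3 calls held in each alternative that tested them.

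The other 5 calls were less firm. Bbs7 was called (log2 change 0.18, adjusted p = 0.00795) and lost its call after common-sum scaling (adjusted p = 0.0593). Tctn2 (log2 change 0.21, adjusted p = 0.016) lost it without control replicate 1 or 2 or co-culture replicate 3, where the adjusted p reached 0.0615, and after common-sum scaling (adjusted p up to 0.0748 over all alternatives). Bbs2 (log2 change 0.21, adjusted p = 0.0322) lost it without control replicate 2 or 3 or co-culture replicate 1 or 2, with no filter and under all 3 other scalings, with an adjusted p up to 0.112. Bbs7 and Bbs2 belong to the BBSome coat and Tctn2 to the transition zone. Ift122 (log2 change 0.18, adjusted p = 0.0246) lost its call without any 1 control or co-culture replicate 2 or 3 and under all 3 other scalings, with an adjusted p up to 0.14. Ift74 (log2 change 0.17, adjusted p = 0.0394) lost it without control replicate 1 or 3, IL-1β replicate 1 or any 1 co-culture library, and also with no filter, with the replicate block and under all 3 other scalings, with an adjusted p up to 0.169.

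Other genes of the same machinery were read from lists by role, which were chosen with earlier results of these data known. Of 68 further structural and trafficking genes of the cilium tested, 17 were called higher (25%) and 9 lower (13.2%) with IL-1β, against 26.5% and 20.2% of all genes. With co-culture 3 were called higher (4.41%) and 4 lower (5.88%) than with IL-1β, against 11.9% and 10.1% of all genes, and 12 higher (17.6%) and 3 lower (4.41%) than in controls, against 21.8% and 12.2%. None of these shares exceeded that of all genes. Of 12 other genes of the trains, kinesin-2 and the BBSome with its helpers, 2 were called higher with IL-1β, the train subunit Ttc30b (log2 change 0.16, adjusted p = 0.0276) and the kinesin-2 accessory subunit Kifap3 (log2 change 0.12, adjusted p = 0.0364), and none under the 3 other scalings. Ttc30b has a near-identical copy, Ttc30a, so its reads are uncertain.

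Dynein-2, the motor of the return journey, had 2 of 5 genes called higher with IL-1β (40%), against 26.5% of all genes. Its light intermediate chain Dync2li1 averaged 8.97 ± 1.22 FPKM with IL-1β and 5.83 ± 1.17 FPKM in controls (SD, n = 3 each; log2 change 0.55, adjusted p = 0.00699 by limma). The heavy chain Dync2h1 averaged 1.47 FPKM with IL-1β and 1.12 FPKM in controls (log2 change 0.22, adjusted p = 0.0408), a call that other scalings or a left-out library ended, with an adjusted p up to 0.234.

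Of 19 other transition zone genes 6 were called higher (31.6%) and 2 lower (10.5%) with IL-1β, against 26.5% and 20.2% of all genes. Of the 6, Nek8 was near the filter in controls and passed it mainly through the IL-1β and co-culture libraries. Ahi1, the Joubert syndrome gene, averaged 8.34 ± 0.16 FPKM with IL-1β and 5.40 ± 0.085 FPKM in controls (SD, n = 3 each; log2 change 0.54, adjusted p = 1.99e-05 by limma). It was lower with co-culture, at 6.97 ± 0.495 FPKM, than with IL-1β (log2 change -0.23, adjusted p = 0.0134). B9d1, of the same barrier as the tectonics, rose with IL-1β to 37.52 FPKM, against 28.04 FPKM in controls (log2 change 0.41, adjusted p = 0.000442), whereas Tmem107 fell to 23.64 FPKM, against 28.09 FPKM (log2 change -0.24, adjusted p = 0.00184).

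Of 16 basal body genes tested, 1 was called higher (6.25%) and 2 lower (12.5%) with IL-1β, against 26.5% and 20.2% of all genes, and none higher and 3 to 4 lower under the other scalings. The distal appendage gene Cep83 averaged 10.09 FPKM with IL-1β and 12.27 FPKM in controls (log2 change -0.26, adjusted p = 0.000531), and Cep89 averaged 11.99 FPKM with IL-1β and 14.54 FPKM in controls (log2 change -0.26, adjusted p = 0.00392). Cep89 was higher with co-culture, at 14.37 FPKM, than with IL-1β (log2 change 0.24, adjusted p = 0.013). Among 16 genes of lipidated and membrane cargo 6 were called higher (37.5%) and 5 lower (31.2%) with IL-1β, against 26.5% and 20.2% of all genes. The polycystins moved apart: Pkd2, the channel, averaged 48.14 FPKM with IL-1β and 37.39 FPKM in controls (log2 change 0.36, adjusted p = 1.36e-05), and its partner Pkd1 averaged 6.25 FPKM with IL-1β and 9.19 FPKM in controls (log2 change -0.49, adjusted p = 1.13e-05).

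Genes known to take the cilium down were called lower with IL-1β in 4 of 9 cases (44.4%) and higher in none. Over all genes 20.2% were called lower and 26.5% higher. Under the other scalings 5 to 6 of the 9 were called lower. Aurka, the kinase that starts disassembly and also acts in mitosis, averaged 41.28 FPKM with IL-1β and 57.79 FPKM in controls (log2 change -0.48, adjusted p = 1.03e-05). With co-culture it averaged 51.18 FPKM, higher than with IL-1β (log2 change 0.30, adjusted p = 0.000849). Plk1 and Nek2 were likewise lower with IL-1β and higher with co-culture than with IL-1β, and the tubulin deacetylase gene Hdac6 was not called with IL-1β (log2 change -0.10, adjusted p = 0.209), but was called lower under common-sum and quantile scaling (log2 change down to -0.18, adjusted p down to 0.0476). Cell division genes were called in both directions. Of 14, 4 were called higher (28.6%) and 9 lower (64.3%) with IL-1β, against 26.5% and 20.2% of all genes. Under the other scalings 1 to 2 were called higher and 9 lower. With co-culture 9 were called higher (64.3%) and none lower than with IL-1β, against 11.9% and 10.1% of all genes. The 4 called higher with IL-1β included Pcna, Mcm2 and Mcm3. Pcna averaged 297.7 FPKM with IL-1β and 244.8 FPKM in controls (log2 change 0.28, adjusted p = 7.26e-06 by limma). Cdc20 averaged 118.7 FPKM with IL-1β and 172.6 FPKM in controls (log2 change -0.54, adjusted p = 7.47e-07). Dividing cells lack a cilium, and the part of cell division in the results on the 39 genes was not tested.

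Of the RFX and FOXJ1 factors 2 of 5 tested were called higher (40%) and 1 lower (20%) with IL-1β, against 26.5% and 20.2% of all genes. Rfx3, known for driving cilium genes in the mouse, had 1.2, 1.23 and 1.34 FPKM with IL-1β, against 0.58, 0.66 and 0.59 FPKM in controls, without overlap (log2 change 0.49, adjusted p = 0.000661). With co-culture it had 0.87, 1.03 and 0.82 FPKM, under all IL-1β values (log2 change -0.24, adjusted p = 0.0539, and down to 0.00967 in 3 alternatives that called it). Rfx3 passed the filter through its IL-1β libraries and 1 co-culture library, and it was also called against control with no filter (adjusted p up to 0.00889 over the alternatives). Rfx5, better known for class II antigen presentation genes, averaged 7.78 FPKM with IL-1β and 5.71 FPKM in controls (log2 change 0.39, adjusted p = 0.000532). Rfx1 averaged 4.83 FPKM with IL-1β and 5.77 FPKM in controls (log2 change -0.21, adjusted p = 0.023), a call that ended without control replicate 1 or 3 or IL-1β replicate 1 or 2 (adjusted p up to 0.0884). Rfx2, Rfx4, Rfx6 and Foxj1 were below the filter, with no value above 0.84 FPKM.

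Hedgehog pathway genes, which signal through the cilium, were called lower with IL-1β in 6 of 12 cases (50%) and higher in none. Over all genes 20.2% were called lower and 26.5% higher. Gas1, a Hedgehog co-receptor, averaged 42.03 FPKM with IL-1β and 73.63 FPKM in controls (log2 change -0.79, adjusted p = 4.94e-08). With co-culture it averaged 58.81 FPKM, higher than with IL-1β (log2 change 0.47, adjusted p = 1.33e-05). Gas1 was the only 1 of the 12 called higher with co-culture than with IL-1β (8.33%), against 11.9% of all genes, and none was called lower. Against controls 5 of the 12 were called lower with co-culture (41.7%) and none higher, against 12.2% and 21.8% of all genes. The co-receptor Boc and the transcription factor Gli2 were also lower with IL-1β. The target gene Gli1 was below the filter, at 0.35, 0.36 and 0.34 FPKM with co-culture, 0.19, 0.32 and 0.23 FPKM with IL-1β and 0.67, 0.83 and 0.78 FPKM in controls, and was not tested. The target and receptor gene Ptch1 was not called and averaged 3.57 FPKM with IL-1β and 3.72 FPKM in controls.

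**Figure D4:**
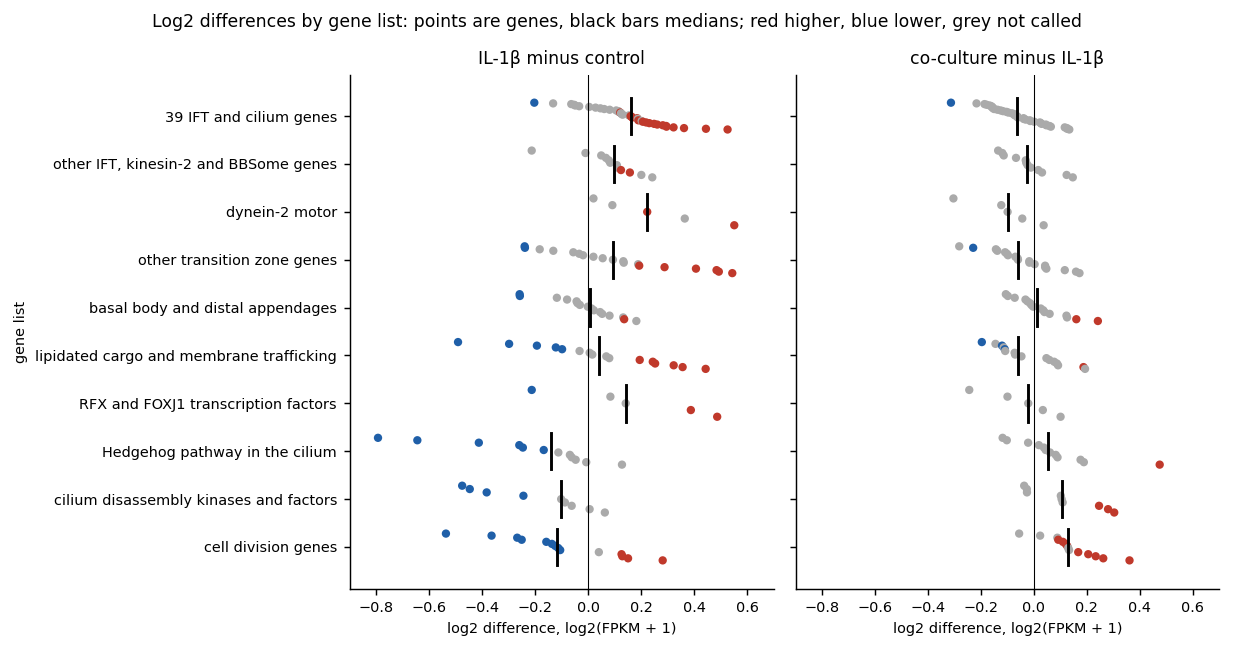
Log2 difference (log2(FPKM + 1)) of each tested gene in the 39 and in each other list, for IL-1β against control and co-culture against IL-1β; red points are called higher, blue called lower, grey not called, and black bars are medians. The 39 lie mostly above 0 with IL-1β, whereas disassembly and Hedgehog genes are called on the lower side.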

How the data were processed

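Per the labels' protocols, chondrocytes were digested from rat cartilage and dermal fibroblasts from skin, and poly(A) RNA was captured and reverse transcribed with random primers. Whether strand was kept is not stated, so reads of overlapping or antisense genes may not be told apart. A table of FPKM, given to 2 decimals for 17588 genes in 9 libraries, was deposited per the file headers. The submitters' processing notes name GRCm38, a mouse build. A rat GRCr8 gene table held 93.2% of the identifiers and all 39 members. For aligner, counter and annotation: not given in the sources used here.

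Values were tested as log2(FPKM + 1) with limma 3.58.1 (R 4.3.3), with a mean-variance trend, all 9 libraries in 1 fit, no block, and Benjamini-Hochberg adjustment over 11732 genes with at least 1 FPKM in at least 3 libraries. The code was tested on simulated data. There were 10 alternatives for filter, pseudocount, scaling, model and pairing, and 9 fits that left out 1 library each. Depth is unknown, so no counting interval is given. The labels do not say that equal replicate numbers pair libraries, so the block is an alternative only. Named genes were every called member, except that some genes are not reported here by name, and from each other list up to 4 called genes of smallest p per comparison plus a few fixed names. Members and lists were chosen with earlier results of these data known. Promoter sequences are from RefSeq on GRCr8, with the first start used for a gene that has several.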

Additional observations from a re-analysis of the deposited data

How the results depend on the processing

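Of the 18 genes called higher with IL-1β than in controls, 9 kept their call in every alternative that tested them, among them Tctn1, Ift27, Bbs2, Ift122, Kif3c, Bbs10, Tctn2 and Bbs5. Tctn1 and Bbs10 were not tested under a mean of at least 5 FPKM. No change reversed. The count of 18 was 10 after common-sum scaling and 9 after quantile normalization, and 13 to 18 on leaving out 1 library. The count called lower was 1, 2 after quantile normalization, and 1 on leaving out any library. For co-culture against IL-1β none was called higher in any alternative, and 1 to 2 were called lower on leaving out 1 library. For co-culture against control the 7 called higher became 2 after common-sum scaling, 4 after median-of-ratios scaling, 4 after quantile normalization, and 4 to 7 on leaving out 1 library, the lowest without control replicate 2 or co-culture replicate 3. The cause was not tested. Depth is unknown, and the SE of the 39 log2 changes ran from 0.042 to 0.115, so differences of that size were not detectable here.

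Deviations of libraries with the same replicate number correlated between -0.0907 and 0.0855. Those with different numbers, in different groups, correlated between -0.0768 and 0.0887. The numbers were not taken to pair libraries, although the labels leave pairing unknown. With the replicate number as a block, 16 were called higher and 1 lower with IL-1β, 0 and 1 for co-culture against IL-1β, and 6 and 1 for co-culture against control.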
